A study of Mus musculus with 12 samples.

Results

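The interferon response genes described here are 44 mouse genes that interferons or the sensors of foreign nucleic acid are known to induce or use and that were listed by gene symbol. Of the 23366 gene symbols in each deposited table, 43 belonged to this list, and Ifi27 is not analysed here. They were measured in Beko cells, a mouse pre-T cell line, by RNA-seq of total RNA depleted of ribosomal RNA. The 12 libraries formed 3 experiments of 4 libraries, each with 2 treated and 2 control libraries, and all groups came from the same line in the same medium. DAPT at 10 µg/ml for 24 h, which inhibits γ-secretase and so the release of active Notch, was set against DMSO for 24 h. Apicidin, a histone deacetylase inhibitor, at 0.01 µg/ml for 24 h was set against its own DMSO libraries. Cells infected with a plasmid for a short hairpin RNA against Hdac3 (shHdac3) were set against cells with a scrambled hairpin, both taken 96 h after puromycin. The labels of both shHdac3 libraries name a single hairpin (Sh1), so a change with shHdac3 cannot be told apart from a further effect of that hairpin.

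Interferons are secreted proteins that bind receptors at the cell surface. Type I interferons act through the Ifnar1 and Ifnar2 chains and the kinases Tyk2 and Jak1, which activate Stat2; Stat2 and Irf9 then bind interferon-stimulated response elements (ISREs) beside target genes. Interferon gamma acts through Ifngr1 and Ifngr2 and drives genes with gamma-activated sites (GAS), with Irf1 as an early target. Inside the cell, RNA sensors such as RIG-I, encoded by Ddx58, turn on interferon genes through Irf3 and Irf7. The induced proteins bind or cut viral RNA, block entry, budding and translation, or attack vacuoles that hold microbes. T cell precursors carry many of these transcripts at a low level without infection, and Irf1 and Irf8 also serve in the development of immune cells.

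The ISRE core searched was GAAANNGAA on either strand in the 250 bases before a gene's start, with RefSeq promoters of the mouse build GRCm38.p6. Promoters were listed for 35 of the 44 genes, and 16 of these 35 genes (45.7%) held the core, beside 8.18% of all 27025 genes of the promoter table. The GAS letters TTCNNNGAA were in 10 of the 35 genes (28.6%), beside 8.13% of all genes. Ifitm2, which passed the test in all 3 experiments, and Stat2, Trim25 and Gbp2, which passed in 2, are shown because they hold the core. Bst2 also passed in 2 and holds it, and is left out by its larger adjusted p in the experiment where it did not pass. Capitals mark the core, shown with up to 60 bases on each side within the listed promoter and the bases before the start.
Ifitm2, chr7:140955962-140956067, minus strand: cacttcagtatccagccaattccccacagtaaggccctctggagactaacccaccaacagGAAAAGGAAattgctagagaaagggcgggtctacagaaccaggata
Stat2, chr10:128270248-128270345, plus strand: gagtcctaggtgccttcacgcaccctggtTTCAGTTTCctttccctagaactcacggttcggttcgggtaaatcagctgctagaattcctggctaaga
Trim25, chr11:88999334-88999402, plus strand: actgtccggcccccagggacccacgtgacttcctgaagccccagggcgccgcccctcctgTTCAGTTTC
Gbp2, chr3:142620545-142620662, plus strand: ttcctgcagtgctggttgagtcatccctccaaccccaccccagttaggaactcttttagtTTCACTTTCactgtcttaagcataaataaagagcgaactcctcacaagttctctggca
The core of Ifitm2 reads GAAAAGGAA on the strand of the gene, and the others lie on the opposite strand, as GAAACTGAA in Stat2 and Trim25 and as GAAAGTGAA in Gbp2. A match of these letters is a description of the sequence, not a measured binding site.

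The labels of the shHdac3 and DAPT libraries held in the genes that check them. The targeted gene Hdac3 measured 774 and 819 under its own hairpin, below the 2012 and 1930.1 of the scrambled hairpin (-1.31 ± 0.05, adjusted p = 7.6e-25), and the Notch target Dtx1 stood at 1959 and 1944 with DAPT and at 16625 and 15824 with DMSO. Dtx1 also fell with apicidin (-0.66 ± 0.05) and with shHdac3 (-0.55 ± 0.05), by less than with DAPT (-3.05 ± 0.04). No gene was used to check the apicidin label. All 8 T lineage markers listed were present in each experiment, and Ms4a1, Pax5, Ncr1 and Klrd1, of B cells and NK cells, were at 0 in every library. Reads assigned to genes numbered 37237080 to 42815304 per library in the DAPT experiment, 21766984 to 29652001 in the apicidin experiment and 24673559 to 29004315 in the hairpin experiment. Libraries of the same group differed beyond counting noise, at 3.47 to 19.0 times the variance that counting alone gives. Whether replicates came from separate cultures is not in the labels, and the p-values below then measure only the spread between libraries, which could be technical.

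The interferon response genes were a small part of the RNA. They took 656 and 675 CPM of the gene reads in the DMSO libraries of the DAPT experiment and 719 and 721 with DAPT, so the groups did not overlap. The share was 762 and 731 CPM with DMSO against 750 and 730 with apicidin, where the groups overlapped. It was 716 and 717 with the scrambled hairpin against 706 and 708 with shHdac3, again without overlap. Levels below are normalized reads per gene unless a scale is named, and they can be compared only within an experiment. Changes are log2 fold changes of treated over control ± SE with 2 libraries per group.

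In the DMSO libraries of the DAPT experiment, levels per kilobase of merged exons ranged widely. Bst2, which encodes tetherin, a protein that holds budding virus at the membrane, led with 1662 and 1687 normalized reads per kb. Dtx3l, a ubiquitin ligase partner of Parp9, followed with 862 and 881, and Irf1 with 641 and 645. Igtp (509.9 and 522), Ifi27l2a (505 and 488), Irf3 (490.3 and 475), Parp9 (463 and 489) and Ifi47 (472 and 467) came next. The range of Igtp lay above that of Ifi27l2a, while from Ifi27l2a to Ifi47 the ranges of neighbours in this order overlapped. In contrast, Mx1, Mx2, Oasl1, Oasl2, Samhd1, Irf5 and Ifih1 stood at 5.15 per kb or less. The order is a description of 2 libraries. Gene models were those of GENCODE M21 on GRCm38, while the reads were placed on mm9.

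**Figure D1:**
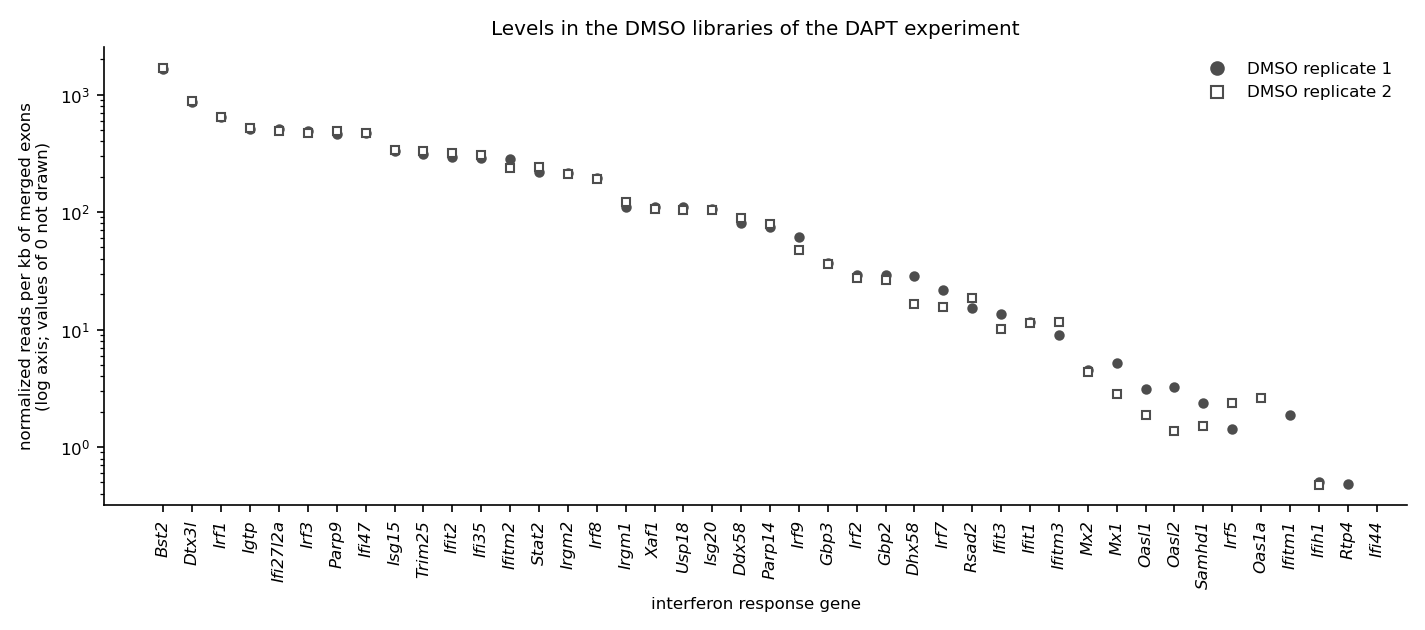
Normalized reads per kb of merged exons (log axis) of 43 interferon response genes in the 2 DMSO libraries of the DAPT experiment, in order of the mean; filled circles are replicate 1, open squares replicate 2, and values of 0 are not drawn. Bst2 stands highest at 1662 and 1687, and Ifi44 was at 0 in both.

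Genes with a level of 10 or more in at least 2 of an experiment's 4 libraries were tested, which left 35 of the 43 genes with DAPT, 32 with apicidin and 36 with shHdac3. The same 32 genes were tested in all 3 experiments. Ifitm1, Ifitm3, Ifih1, Oas1a, Oasl1, Rtp4 and Ifi44 fell under the minimum in each. Just inside it, Irf5 stood at 12.3 and 11.5 in shHdac3 cells against 9.19 and 10.0 in scrambled controls, and passed the minimum only through the treated libraries. Just outside it, Mx2 stood at 8.75 and 9.09 with apicidin against 10.2 and 8.79 with DMSO. Ifitm3, which blocks virus entry, had 42 reads over all 12 libraries, and Ifih1, the RNA sensor MDA5, had 44. Such low values carry wide errors, and no change was read from them.

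Interferon genes themselves were near or at 0. Ifnb1, Ifna4, Ifne and Ifng had 0 reads in all 12 libraries, which allows up to 0.138 CPM in the shallowest library, by counting error only. Ifna1 had 2 reads, Ifna2 had 1 and Ifnk had 22 over the 12 libraries. None of these 7 ligand genes reached the minimum in any experiment.

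More interferon response genes rose than fell with DAPT. Of 35 tested, 10 rose and 5 fell at a limma adjusted p under 0.05, beside 20.1% of all 12840 tested genes that rose and 23.1% that fell. The 15 calls were 42.9% of the genes tested, close to the 43.2% over all genes. Groups did not overlap in 22 of the 35 genes, beside 69.9% of all genes. Usp18 rose 2.06-fold, Irf7 and Gbp2 rose nearly as much, and Irf8, Ddx58 and Bst2 rose by less, while Isg15 and Ifitm2 fell. The median log2 fold change over the 35 genes was 0.10, beside 0.0014 over all genes tested. In RNA from whole cultures, fewer cells that express a gene and less RNA per cell cannot be told apart.

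Among the transcription factors, 4 of 7 tested (57.1%, beside 20.1% of all genes) rose with DAPT and the others did not pass. Irf7, which drives type I interferon genes, stood at 144 and 124 with DAPT and at 82.1 and 58.7 with DMSO, so that both treated libraries lay above both controls (0.94 ± 0.17, adjusted p = 1.3e-04). Irf8, a factor of myeloid and lymphoid development, stood at 1939 and 1915 against 1369 and 1351, again without overlap (0.50 ± 0.05, adjusted p = 1.2e-08). Irf1 was at 3046 and 3091 against 2548 and 2566 (0.26 ± 0.04, adjusted p = 1.8e-05), a change of smaller size with little spread. Stat2 was at 1534 and 1618 against 1311 and 1436 (0.20 ± 0.05, adjusted p = 0.0045), and this call was lost with DAPT replicate 2 left out (adjusted p = 0.077). Its partner Irf9 was at 306 and 303 against 333 and 256, with overlapping groups, and did not pass (0.06 ± 0.11, adjusted p = 0.69). Irf2 (0.08 ± 0.11) and Irf3 (-0.05 ± 0.05) did not pass either.

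Usp18, which removes the ubiquitin-like protein ISG15 from its targets and damps the type I receptor, had the largest change with DAPT. It stood at 623 and 609.7 with DAPT and at 307 and 292 with DMSO, a 2.06-fold difference (1.04 ± 0.08, adjusted p = 3.8e-10). Isg15 went the other way, at 170.0 and 194 against 249 and 253 (-0.46 ± 0.11, adjusted p = 0.0017). The modifier and its protease thus moved in opposite directions, and neither gene's groups overlapped.

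The sensor gene Ddx58 rose, at 725 and 769.8 against 571 and 627 (0.32 ± 0.07, adjusted p = 6.9e-04). Trim25, a ubiquitin ligase that helps activate RIG-I, fell (-0.20 ± 0.05, adjusted p = 0.0032), a call lost with DAPT replicate 1 left out (adjusted p = 0.12). Dhx58, the RIG-I relative LGP2, was at -0.25 ± 0.22 and did not pass (adjusted p = 0.39), but fell with DMSO replicate 2 left out (-0.64, adjusted p = 0.023).

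Of 6 tested genes that block viral translation or the membrane, 1 rose and 1 fell with DAPT. These were 16.7% each, near the 20.1% and 23.1% of all genes. Bst2 stood at 1904 and 1847 against 1501 and 1523 (0.31 ± 0.05, adjusted p = 1.2e-05), with no overlap. Ifitm2, of a family that blocks virus entry, stood at 126 and 139 against 187 and 155 (-0.36 ± 0.13, adjusted p = 0.035). The Ifitm2 call was lost with DAPT replicate 1 left out (adjusted p = 0.15) or DMSO replicate 1 (adjusted p = 0.32). Rsad2, which encodes the antiviral enzyme viperin, was at 109 and 79.6 against 66.7 and 80.3 (0.34 ± 0.18, adjusted p = 0.14), with overlap, and passed with DAPT replicate 2 left out (adjusted p = 0.026). The RNA-binding Ifit genes did not pass, with Ifit1 at 0.57 ± 0.25, Ifit2 at -0.05 ± 0.06 and Ifit3 at 0.01 ± 0.33. The tested enzymes that act on nucleic acids did not pass, where Isg20, an RNA exonuclease, was at 0.23 ± 0.11, Samhd1, which breaks down nucleotides, at -0.18 ± 0.37, and Oasl2 at 0.38 ± 0.40.

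Interferon-induced GTPases act on vacuoles that hold microbes or on viral particles. Of 8 such genes tested, 2 rose with DAPT (25%, near the 20.1% of all genes) and the others did not pass. Gbp2, a guanylate-binding protein, stood at 127 and 138 against 72.8 and 66.6 (0.92 ± 0.16, adjusted p = 5.1e-05), without overlap. Ifi47 rose by 0.19 ± 0.05 (adjusted p = 0.0054). Gbp3, the neighbour of Gbp2 in the genome, was at 0.31 ± 0.14 (adjusted p = 0.073), and Igtp at 0.15 ± 0.06 (adjusted p = 0.057), and Igtp passed with DAPT replicate 2 left out (adjusted p = 0.0081) or DMSO replicate 2 (adjusted p = 0.030). Irgm1, Irgm2, Mx1 and Mx2 did not pass, with values from -0.16 to 0.10.

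The ADP-ribosyltransferase gene Parp9 (-0.19 ± 0.05, adjusted p = 0.0018) and its partner Dtx3l (-0.13 ± 0.04, adjusted p = 0.0082) fell slightly with DAPT, and Parp14 was at -0.07 ± 0.07. The Parp9 call was lost with DAPT replicate 1 left out (adjusted p = 0.056) and that of Dtx3l with DAPT replicate 2 left out (adjusted p = 0.14). Ifi27l2a, a small interferon-induced protein gene, rose by 0.27 ± 0.11 (adjusted p = 0.045). That call was lost with DAPT replicate 1 left out (adjusted p = 0.38), DMSO replicate 1 (adjusted p = 0.066) or DMSO replicate 2 (adjusted p = 0.13). Ifi35 (-0.05 ± 0.08) and Xaf1 (0.12 ± 0.07) did not pass.

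Of the 15 calls with DAPT, 9 held in every fit that left out 1 library. The count of genes that fell was 3 with upper-quartile factors and 1 without an intensity trend, beside 18.9% and 12.7% of all genes. The split over all genes depended on the scaling. With upper-quartile factors the calls over all genes went from 2584 higher and 2962 lower to 3153 higher and 2430 lower. In that setting 12 of the 35 interferon response genes rose, beside 24.6% of all genes. Markers of other cells moved with DAPT too. The macrophage and monocyte list summed to 467 to 536 with DAPT and 243 to 248 with DMSO, carried by Itgam alone of 6 genes measured, with Cd14 at 0 and Csf1r, Lyz2, Emr1 and Mpeg1 at 8.33 or less. The fibroblast list summed to 80.2 to 82.3 against 31.3 to 36.9, with Dcn at 0. Its rise came through Col1a2 (72.7 and 68.5 against 27.7 and 20.6), while Col1a1 had overlapping groups and Pdgfra was at 1.07 or less. The dendritic cell list summed to 849.8 to 961 against 783 to 819, with 3 of 5 genes at 10 or more and Itgax and Ccr7 at 5.34 or less. Only Siglech of these passed (62.0 and 81.4 against 42.1 and 43.1), while Xcr1 and Flt3 had overlapping groups. The T lineage list summed to 113170 to 115040 against 140760 to 144180. That sum rested most on Rag1 (41720.0 and 42519 against 59768 and 63296); 6 of its 8 genes fell, while Thy1 and Bcl11b rose. The part of these shifts in the result was not tested.

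**Figure D2:**
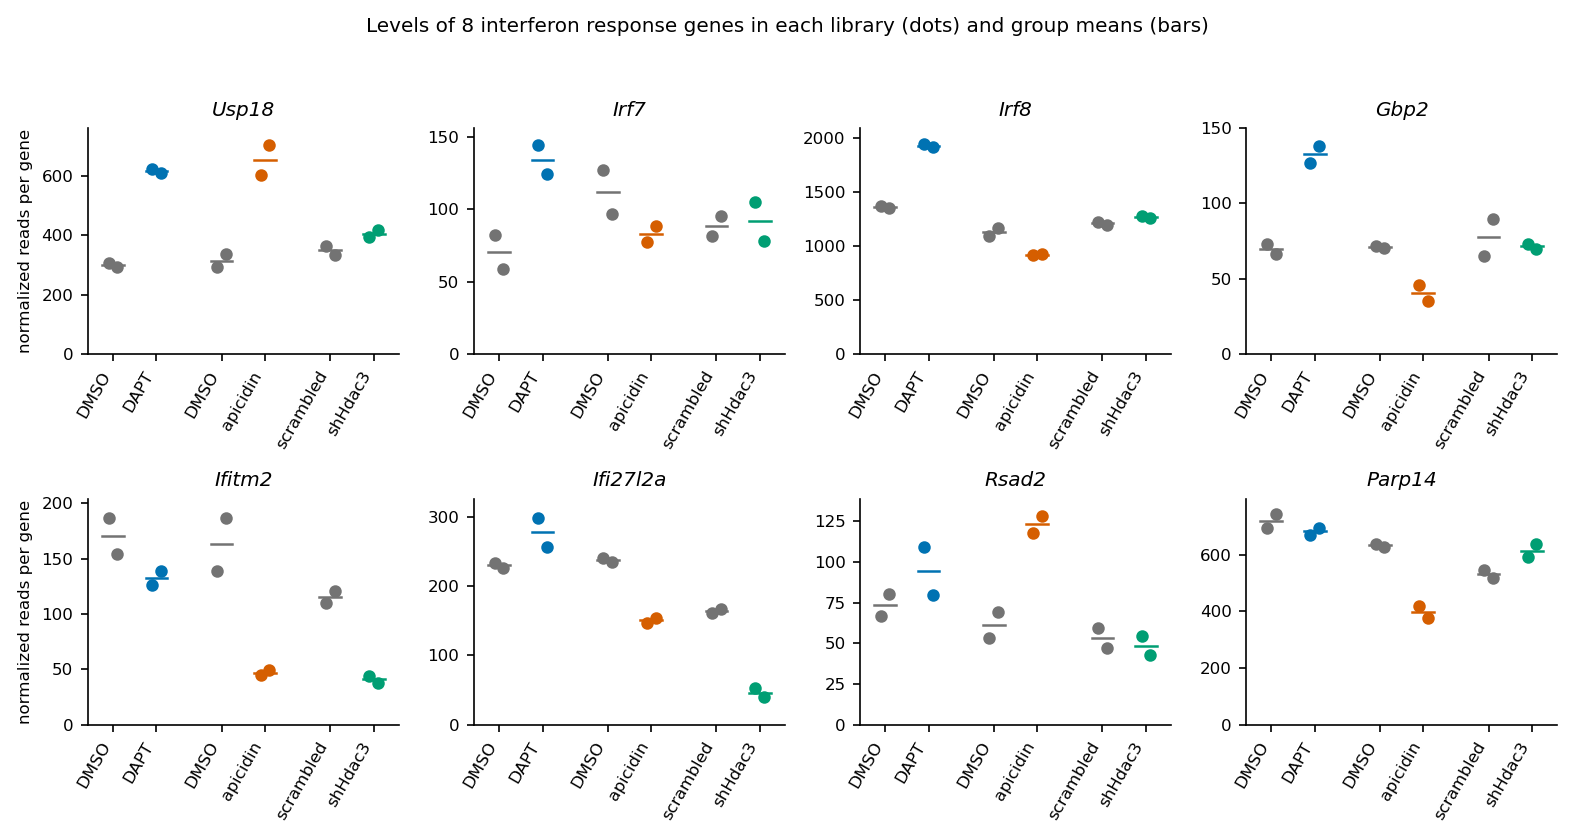
Normalized reads per gene of 8 interferon response genes in each of the 12 libraries (dots) with the mean of each group (bars), treated groups coloured and controls grey. Usp18 stands at 623 and 609.7 with DAPT and at 602 and 703 with apicidin, each pair above the DMSO libraries of its own experiment. Ifitm2 lies below its own controls in each experiment. Levels can be compared only within an experiment.

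More interferon response genes fell than rose with apicidin. Of 32 tested, 6 rose and 14 fell at a limma adjusted p under 0.05, beside 18.2% of all 12463 tested genes that rose and 19.9% that fell. The 20 calls were 62.5% of the genes tested, beside 38.1% over all genes. Groups did not overlap in 28 of the 32 genes, beside 69% of all genes. Ifitm2 had the largest fall, Usp18 rose 2.08-fold and Rsad2 2.01-fold, and Gbp2, Parp14, Isg20 and Ifi27l2a also fell. The median over the 32 genes was -0.20, beside 0.0016 over all genes tested. With DESeq2 on the recovered reads 8 of the 32 fell, beside 11.4% of all genes. With no intensity trend 2 rose and 8 fell, beside 7.56% and 8.48% of all genes.

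Of 6 tested genes for membrane and translation blockers, 2 rose and 1 fell with apicidin (33.3% and 16.7%, beside 18.2% and 19.9% of all genes). That fall was the largest among the interferon response genes. Ifitm2 stood at 44.9 and 49.1 with apicidin and at 139 and 187 with DMSO, 3.47-fold lower (-1.76 ± 0.18, adjusted p = 7.0e-07). Rsad2 stood at 118 and 128 against 53.4 and 69.4 (1.0 ± 0.18, adjusted p = 2.3e-04). Neither gene's groups overlapped. Ifit2, whose product binds RNA and restrains translation, rose by 0.27 ± 0.08 (adjusted p = 0.0093), a call lost with DMSO replicate 1 left out (adjusted p = 0.10). Bst2 (0.02 ± 0.06), Ifit1 (-0.51 ± 0.37) and Ifit3 (0.39 ± 0.36) did not pass.

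Usp18 stood at 602 and 703 with apicidin and at 292 and 337 with DMSO, a 2.08-fold difference (1.05 ± 0.09, adjusted p = 8.5e-08). Isg15, by contrast, was at 128 and 114 against 125 and 129, with overlapping groups (-0.07 ± 0.14, adjusted p = 0.71). Usp18 was therefore above its own controls in all 4 libraries treated with either small molecule.

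The 3 neighbouring genes Parp14, Dtx3l and Parp9 all fell with apicidin, beside 19.9% of all genes. Parp14, a mono-ADP-ribosyltransferase, stood at 420.1 and 375 against 639 and 629 (-0.67 ± 0.08, adjusted p = 2.3e-06). Dtx3l fell (-0.45 ± 0.05, adjusted p = 1.2e-06) and Parp9 likewise (-0.40 ± 0.05, adjusted p = 7.7e-06). Parp9 and Dtx3l lie on opposite strands and overlap in their exons, and reads there could not be told apart if counting ignored strand.

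Of 6 GTPase genes tested with apicidin, 4 fell (66.7%, beside 19.9% of all genes) and the others did not pass. Gbp2 stood at 46.0 and 35.5 against 71.6 and 70.3 (-0.80 ± 0.21, adjusted p = 0.0063), and its call was lost with apicidin replicate 2 left out (adjusted p = 0.059). Ifi47 fell (-0.45 ± 0.07, adjusted p = 6.9e-05), a call that held whichever library was left out. Irgm1 fell (-0.27 ± 0.09, adjusted p = 0.020) and Igtp likewise (-0.18 ± 0.06, adjusted p = 0.027). The Irgm1 call was lost with apicidin replicate 1 left out (adjusted p = 0.13) or DMSO replicate 1 (adjusted p = 0.13), and that of Igtp with apicidin replicate 1 left out (adjusted p = 0.21) or DMSO replicate 2 (adjusted p = 0.066). Irgm2, which overlaps Igtp in 8.01% of the exon bases of Igtp, was at 0.06 ± 0.07, and Gbp3 at -0.14 ± 0.23.

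Isg20 stood at 136 and 136 with apicidin against 222 and 211 (-0.66 ± 0.12, adjusted p = 2.9e-04). Ifi27l2a stood at 147 and 155 against 241 and 235 (-0.66 ± 0.11, adjusted p = 2.2e-04). Both genes lay well below their controls, with replicates close together. Ifi35 fell (-0.21 ± 0.08, adjusted p = 0.042), but that call was lost with apicidin replicate 1 left out (adjusted p = 0.083), apicidin replicate 2 (adjusted p = 0.19) or DMSO replicate 2 (adjusted p = 0.18). Xaf1, linked to cell death, was at -0.21 ± 0.10 (adjusted p = 0.085) but did pass with DMSO replicate 2 left out (adjusted p = 0.0049), and Samhd1 was at 0.43 ± 0.31.

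Transcription factors split with apicidin, 2 higher and 2 lower of 7 (28.6% each, beside 18.2% and 19.9% of all genes). Irf1 stood at 2579.9 and 2524 against 2236 and 2130.0 (0.23 ± 0.04, adjusted p = 6.7e-04), and Irf3, which answers RNA and DNA sensors, rose by 0.25 ± 0.05 (adjusted p = 9.1e-04). Irf8 fell (-0.29 ± 0.06, adjusted p = 4.4e-04), from 1091 and 1166 to 914 and 927. Irf9 stood at 218 and 234 against 267 and 279 (-0.27 ± 0.10, adjusted p = 0.042). The Irf9 call held in no fit that left out a library, at adjusted p = 0.22 without apicidin replicate 1, 0.062 without apicidin replicate 2, 0.058 without DMSO replicate 1 and 0.15 without DMSO replicate 2. Irf7 stood at 77.7 and 88.2 against 127 and 96.7 (-0.42 ± 0.17, adjusted p = 0.064) and did pass with DMSO replicate 2 left out (-0.61, adjusted p = 0.0092). Stat2 was at 967 and 939 against 904 and 925 (0.06 ± 0.06, adjusted p = 0.42), and Irf2 at -0.15 ± 0.13.

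Of the RNA sensors, Ddx58 rose with apicidin by 0.28 ± 0.08 (adjusted p = 0.010) and Dhx58 fell. The Ddx58 call was lost with DMSO replicate 2 left out (adjusted p = 0.18). Dhx58 stood at 46.0 and 33.7 against 72.7 and 58.0 (-0.71 ± 0.23, adjusted p = 0.020), and its call was lost with apicidin replicate 2 left out (adjusted p = 0.16) or DMSO replicate 1 (adjusted p = 0.11). Trim25 was at -0.03 ± 0.05. In all, 12 of the 20 calls with apicidin held in every fit that left out 1 library. The macrophage and monocyte list summed to 752 to 797 with apicidin and 508 to 535 with DMSO, again through Itgam alone of 6 genes measured, with Cd14 at 0. The fibroblast list summed to 42.7 to 49.2 against 22.9 to 27.3, with Dcn at 0. Its rise came mostly through Col1a2 (37.2 and 31.8 against 15.9 and 18.5), while Col1a1 had overlapping groups and Pdgfra was at 0.88 or less. The dendritic cell list summed to 475 to 495 against 409 to 417, mostly from Xcr1, and the T lineage list to 63535 to 63709 against 90321 to 90523, again mostly through Rag1, with 6 of 8 genes lower. The part of these shifts in the result was not tested.

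With shHdac3, fewer interferon response genes passed. Of 36 tested, 4 rose and 7 fell at a limma adjusted p under 0.05, beside 22.5% of all 12482 tested genes that rose and 19.4% that fell. The 11 calls were 30.6% of the genes tested, beside 41.9% over all genes. Groups did not overlap in 22 of the 36 genes, beside 69.2% of all genes. Ifi27l2a and Ifitm2 fell 3.57-fold and 2.83-fold, Isg20, Ddx58, Xaf1, Bst2 and Stat2 fell by less, and Gbp3, Trim25, Usp18 and Parp14 rose. The median over the 36 genes was -0.08, beside 0.00018 over all genes tested. The split depended on the scaling: with upper-quartile factors 2 of the interferon response genes rose and 10 fell, and over all genes the calls went from 2811 higher and 2417 lower to 2264 higher and 2944 lower.

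Ifi27l2a stood at 52.5 and 39.6 with shHdac3 and at 161 and 167 with the scrambled hairpin, 3.57-fold lower (-1.83 ± 0.18, adjusted p = 8.4e-12). Ifitm2 stood at 44.2 and 37.6 against 110.2 and 121, 2.83-fold lower (-1.48 ± 0.20, adjusted p = 2.6e-08). These were the only interferon response genes that passed with a fold of 2 or more in this experiment. In the annotation used here 40.9% of the exon bases of Ifitm2 overlap the gene model Gm45717 on the same strand, so reads there could not be assigned to Ifitm2 with certainty. Bst2 fell (-0.26 ± 0.06, adjusted p = 3.3e-04), from 1005 and 1003 to 855 and 818.

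Isg20 stood at 139.9 and 127 with shHdac3 against 202 and 179 (-0.51 ± 0.13, adjusted p = 0.0015), a call lost with scrambled replicate 1 left out (adjusted p = 0.054). Xaf1 stood at 303 and 305 against 415 and 381 (-0.39 ± 0.09, adjusted p = 4.9e-04). In both genes the treated libraries lay below the controls. Ifi35 was at -0.16 ± 0.08 (adjusted p = 0.11), Samhd1 at 0.48 ± 0.45 and Oasl2 at -0.42 ± 0.43.

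The sensor genes moved apart with shHdac3. Ddx58 stood at 318 and 294 against 392 and 459.8 (-0.47 ± 0.09, adjusted p = 4.0e-05). Trim25 rose, at 1525 and 1415 against 1210.5 and 1232 (0.27 ± 0.05, adjusted p = 7.4e-05). Neither pair of groups overlapped, and Dhx58 was at -0.04 ± 0.22.

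Gbp3 stood at 133 and 132 with shHdac3 against 98.0 and 83.6 (0.55 ± 0.16, adjusted p = 0.0042), the only GTPase of 8 tested that passed, and that call was lost with scrambled replicate 2 left out (adjusted p = 0.075). Its neighbour Gbp2 was at -0.10 ± 0.19, with overlapping groups. The 1 GTPase gene that rose was 12.5% of those tested, beside 22.5% of all genes. Parp14 rose by 0.20 ± 0.07 (adjusted p = 0.023), a call lost with shHdac3 replicate 2 left out (adjusted p = 0.20) or when scrambled replicate 2 was (adjusted p = 0.15). Parp9 was at -0.09 ± 0.06 and Dtx3l at -0.10 ± 0.05. Igtp was at -0.14 ± 0.06 (adjusted p = 0.076) and passed with shHdac3 replicate 1 left out (adjusted p = 0.020), and Irgm1, Irgm2, Ifi47, Mx1 and Mx2 did not pass.

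Usp18 stood at 392 and 416 with shHdac3 against 362 and 334 (0.21 ± 0.09, adjusted p = 0.046). This small rise was lost with shHdac3 replicate 1 left out (adjusted p = 0.052), shHdac3 replicate 2 (adjusted p = 0.23) or when scrambled replicate 2 was (adjusted p = 0.28). Isg15 stood at 142 and 129 against 169 and 149 and did not pass (-0.23 ± 0.14, adjusted p = 0.19).

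Of 8 transcription factors tested with shHdac3, Stat2 alone passed (12.5%, beside 41.9% of all genes). Stat2 stood at 1012 and 919 against 1119 and 1092 (-0.20 ± 0.06, adjusted p = 0.0060), and the call was lost with shHdac3 replicate 2 left out (adjusted p = 0.14). Irf1 stood at 2696 and 2574 against 2521 and 2475 (0.08 ± 0.05, adjusted p = 0.20). Irf7, at 105 and 78.2 against 81.7 and 95.4 (0.04 ± 0.18), and Irf9, at 273 and 298 against 311 and 287 (-0.07 ± 0.10), had overlapping groups. Irf3 was at 0.10 ± 0.05 and passed with shHdac3 replicate 1 left out (adjusted p = 0.042), and Irf2, Irf5 and Irf8 did not pass. Ifit1 was at -0.73 ± 0.46 (adjusted p = 0.21) and passed with shHdac3 replicate 2 left out (adjusted p = 0.012), while Ifit2, Ifit3 and Rsad2 did not pass. Ifit1 rested on 6.17 to 26.5 normalized reads per library.

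In all, 6 of the 11 calls with shHdac3 held in every fit that left out 1 library. The 4 rises became 1 with DESeq2 or the adjusted p of the authors' deposited table, 2 with no filter on low values, 1 with no intensity trend, 2 without shHdac3 replicate 2 and 1 without scrambled replicate 2. Over all genes, the share that rose with shHdac3 was 22.5% in the main test. That share was 13.7% with DESeq2, 13.6% with the authors' adjusted p, 14.7% with no filter and 7.54% with no intensity trend. The macrophage and monocyte list summed to 379 to 408 with shHdac3 and 374 to 393 with the scrambled hairpin, with overlap. Within that list Emr1 stood at 12.3 and 11.5 against 5.10 and 2.73 and passed the minimum only through the treated libraries, while Lyz2 stood at 2.06 and 5.22 against 9.19 and 6.36. The fibroblast list summed to 36.0 to 40.7 against 32.7 to 49.1, with overlap, where Col1a1 fell (5.14 and 7.30 against 15.3 and 30.9) and Col1a2 rose (30.9 and 32.3 against 16.3 and 15.4). The T lineage list summed to 72326 to 73871 against 96409 to 96696, mostly through Rag1, and 6 of its 8 genes fell. The part of these shifts in the result was not tested.

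**Figure D3:**
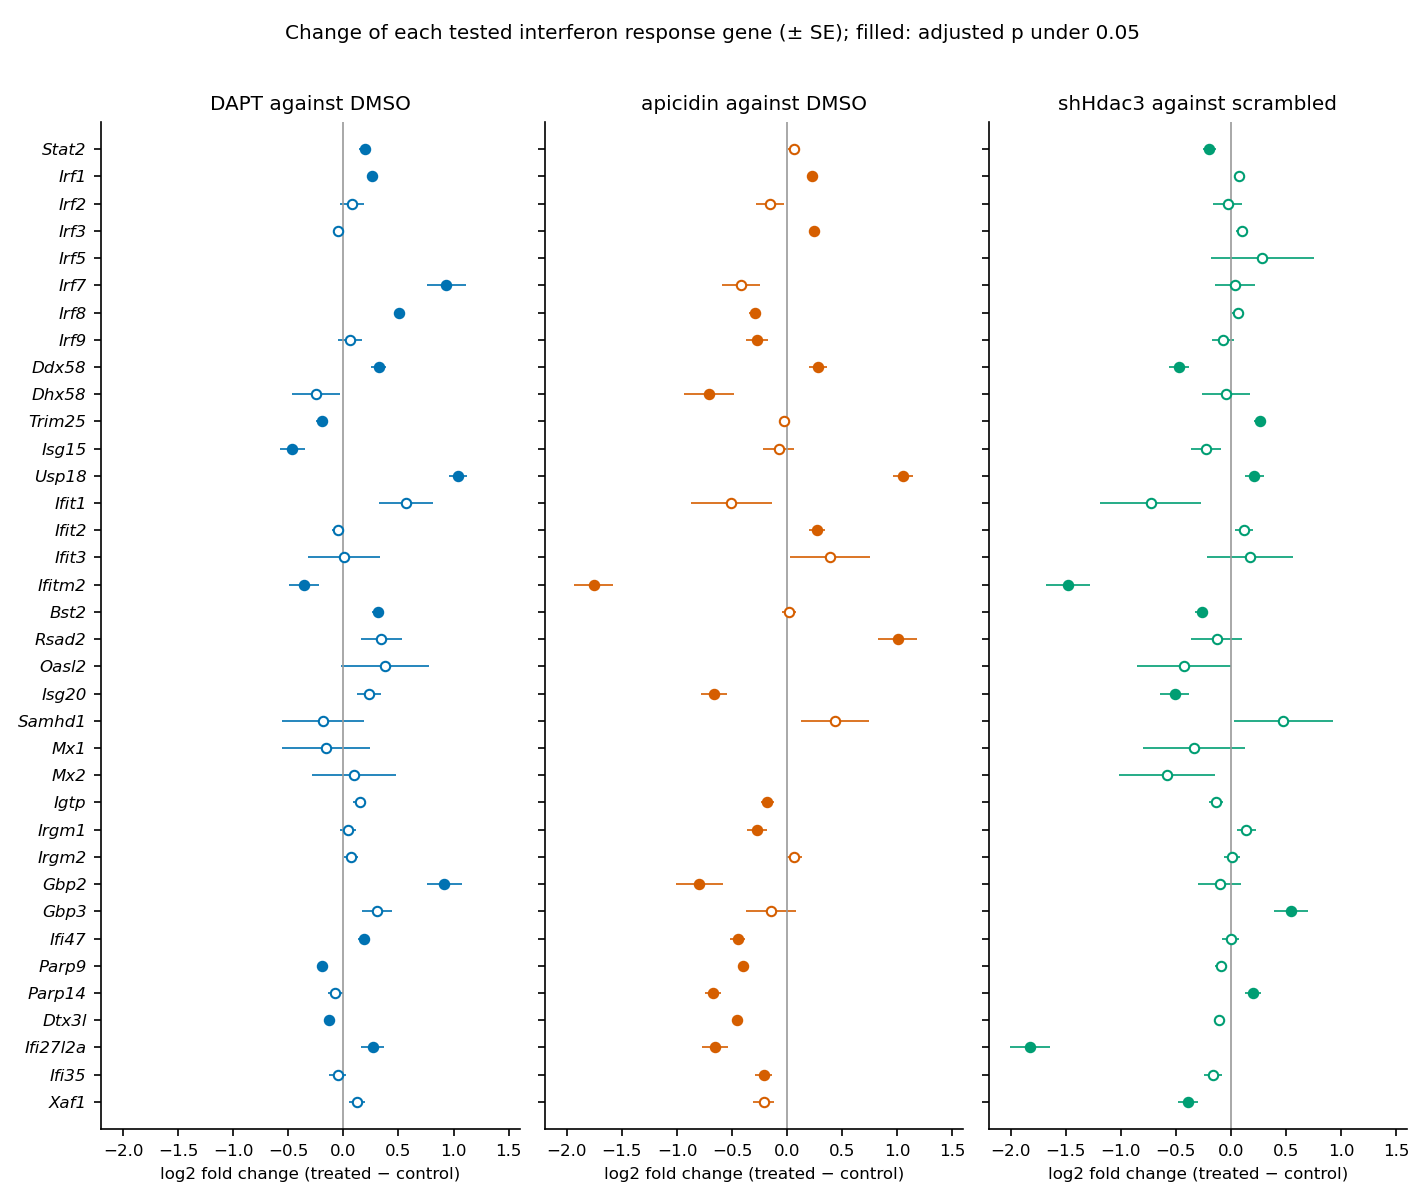
Log2 fold change ± SE of each tested interferon response gene in the 3 experiments, with 2 libraries per group; filled points passed an adjusted p under 0.05. With DAPT most filled points lie right of 0 (10 of 15), and with apicidin most lie left of it (14 of 20).

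Calls were spread over the 3 experiments. Of the 32 genes tested in every experiment, 5 passed in none, 12 in 1, 11 in 2 and 4 in all 3. The 4 were Usp18, Ddx58, Ifitm2 and Ifi27l2a. Of all genes tested, 43.2% passed with DAPT, 38.1% with apicidin and 41.9% with shHdac3. The share of all genes that passed in every experiment was not counted. Usp18 rose and Ifitm2 fell in each experiment, while Ddx58 rose with DAPT and apicidin and fell with shHdac3, and Ifi27l2a rose with DAPT and fell in the other two. No experiments shared control libraries. Of the small-change calls among these, Ifitm2 and Ifi27l2a with DAPT, Ddx58 with apicidin and Usp18 with shHdac3 were lost on leaving out single libraries, as given with each gene.

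The response to DAPT differed from that to apicidin in 16 of 34 genes by a test of the difference itself (limma on all 12 libraries, adjusted p under 0.05), beside 37.1% of all 12254 genes tested. In 14 of these the change was higher with DAPT, beside 16.9% of all genes, and in 2, Irf3 and Ifit2, it was higher with apicidin, beside 20.2%. Gbp2 had the largest difference, 1.70 ± 0.26 log2 units (adjusted p = 2.2e-05). Ifitm2 (1.39 ± 0.24, adjusted p = 6.8e-05), Irf7 (1.34 ± 0.27, adjusted p = 3.8e-04), Ifi27l2a (0.91 ± 0.19, adjusted p = 4.6e-04), Isg20 (0.88 ± 0.16) and Irf8 (0.78 ± 0.07) followed. Of 10 genes called in both experiments, 6 went the same way, beside 67.3% of all genes called in both. Usp18, Irf1 and Ddx58 rose in both and Ifitm2, Parp9 and Dtx3l fell in both, while Irf8, Gbp2, Ifi47 and Ifi27l2a were higher with DAPT and lower with apicidin. The difference of Usp18 was -0.02 ± 0.12 (adjusted p = 0.91). Of the 16 differences, 10 held on leaving out any library. That of Bst2 was lost without apicidin replicate 1 (adjusted p = 0.053) and that of Igtp without DAPT replicate 1 (adjusted p = 0.091). Ifit2 lost its call without DAPT replicate 2, DMSO replicate 2 of the DAPT experiment or DMSO replicate 1 of the apicidin experiment (adjusted p up to 0.098). Irgm1, Parp9 and Xaf1 lost theirs in 4, 5 and 6 of the 12 such fits, among them those without DAPT replicate 2 and without DMSO replicate 1 of the DAPT experiment (adjusted p up to 0.19, 0.15 and 0.26).

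DAPT and shHdac3 differed in 15 of 34 genes, beside 46.3% of all genes tested. The change was higher with DAPT in 13, beside 21% of all genes, and higher with shHdac3 in 2, beside 25.3%. The difference was largest for Ifi27l2a, at 2.09 ± 0.19 (adjusted p = 3.2e-09). Ifitm2 (1.12 ± 0.24), Gbp2 (1.01 ± 0.26), Usp18 (0.82 ± 0.12), Ddx58 (0.78 ± 0.13) and Isg20 (0.73 ± 0.16) were also higher with DAPT. Trim25 (-0.47 ± 0.07) and Parp14 (-0.28 ± 0.10) were higher with shHdac3. Irf7 differed by 0.89 ± 0.27 (adjusted p = 0.0087), which was lost without DMSO replicate 2 of the DAPT experiment (adjusted p = 0.072) or shHdac3 replicate 2 (adjusted p = 0.056). Irf1, Igtp and Parp14 lost their calls in 2, 4 and 4 of the 12 fits that left out a library, each of them without shHdac3 replicate 2 (adjusted p up to 0.076, 0.14 and 0.12), and the other 11 differences held. Of 7 genes called in both experiments, 5 went in opposite directions: Stat2, Ddx58, Bst2 and Ifi27l2a were higher with DAPT and lower with shHdac3, and Trim25 was the reverse. Over all genes called in both, 34.3% went the same way.

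Apicidin and shHdac3, which both bear on histone deacetylation, differed in 16 of 34 genes, beside 35.6% of all genes tested. The change was higher with apicidin in 7, beside 16% of all genes, and higher with shHdac3 in 9, beside 19.7%. Ifi27l2a fell further with shHdac3 (difference 1.18 ± 0.19, adjusted p = 3.4e-05). Rsad2 (1.14 ± 0.29), Usp18 (0.84 ± 0.12) and Ddx58 (0.76 ± 0.13) were higher with apicidin. Parp14 (-0.87 ± 0.10), Ifi47 (-0.44 ± 0.09) and Irgm1 (-0.41 ± 0.11) were higher with shHdac3. Of 6 genes called in both experiments, 4 went the same way, beside 70.3% of all genes called in both. Ifitm2, Isg20 and Ifi27l2a fell in both and Usp18 rose in both, while Ddx58 rose with apicidin and fell with shHdac3 and Parp14 did the reverse. The difference was -0.27 ± 0.24 for Ifitm2 (adjusted p = 0.39) and -0.15 ± 0.16 for Isg20 (adjusted p = 0.49), which does not show that they responded alike. The difference of Bst2 was lost without apicidin replicate 2 (adjusted p = 0.052). Stat2, Irf1 and Gbp3 lost theirs in 3, 8 and 5 of the 12 fits that left out a library, each of them without apicidin replicate 1 and without shHdac3 replicate 2 (adjusted p up to 0.096, 0.18 and 0.25). Gbp2 (-0.70 ± 0.26, adjusted p = 0.044) kept its call only without apicidin replicate 1 or scrambled replicate 2, with an adjusted p of up to 0.22 in the other fits, and the other 11 differences held.

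**Figure D4:**
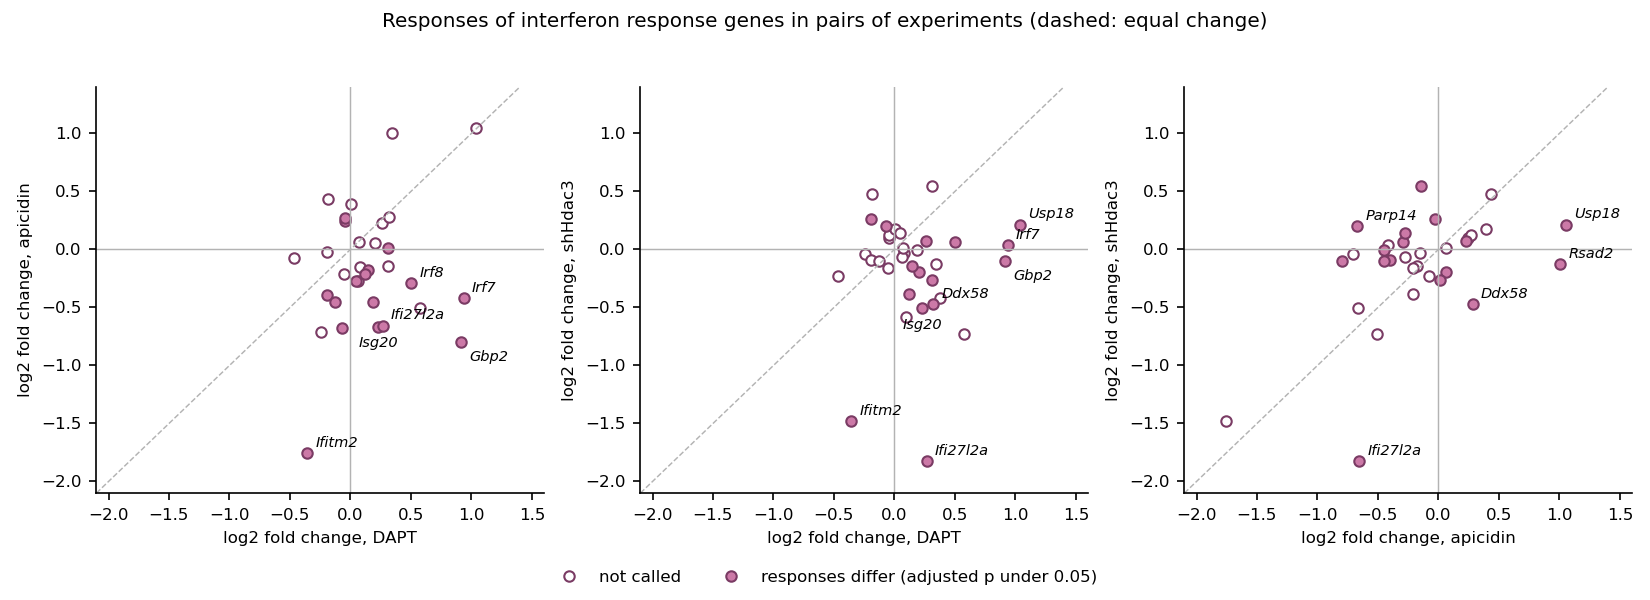
Log2 fold changes of interferon response genes in pairs of experiments, for genes tested in both and in the test of the difference, so that Mx1 is not drawn. Filled points are genes whose responses differ at a limma adjusted p under 0.05, and the dashed line marks equal change. Gbp2, Irf7 and Irf8 lie right of 0 for DAPT and below 0 for apicidin, and Ifi27l2a and Ifitm2 lie lowest for shHdac3.

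The rest of the pathway was described with 88 other genes in 5 lists. The shares of all tested genes that rose and fell were 20.1% and 23.1% with DAPT, 18.2% and 19.9% with apicidin, and 22.5% and 19.4% with shHdac3. The 7 receptor and kinase genes all rose with DAPT, 3 (42.9%) rose with apicidin, and with shHdac3 1 rose and 1 fell (14.3% each). Ifngr1, the ligand-binding chain of the interferon gamma receptor, stood at 10677 and 10486 with DAPT against 4798 and 4708 (1.15 ± 0.04, adjusted p = 5.2e-17), a 2.23-fold difference with tight replicates. Il10rb, a chain shared with type III interferon receptors, rose by 0.98 ± 0.15, Ifngr2 by 0.47 ± 0.07 and Ifnar1 by 0.34 ± 0.04. With apicidin Ifngr1 rose by 0.32 ± 0.04, Jak1 by 0.27 ± 0.04 and Ifnar1 by 0.25 ± 0.04. With shHdac3 Jak1 rose by 0.27 ± 0.04 and Tyk2 fell (-0.27 ± 0.07). Among 5 feedback inhibitors, Socs3 fell in all 3 experiments, at -0.55 ± 0.05 with DAPT, -0.36 ± 0.04 with apicidin and -0.79 ± 0.05 with shHdac3, while Socs1 rose with DAPT (0.58 ± 0.05).

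Of 12 nucleic acid sensing genes tested, 3 rose and 3 fell with DAPT (25% each, beside 20.1% and 23.1% of all genes). With apicidin 1 rose and 2 fell (8.33% and 16.7%, beside 18.2% and 19.9%), and with shHdac3 4 rose and 3 fell (33.3% and 25%, beside 22.5% and 19.4%). Most of these shares were near those of all genes. Zbp1, a sensor of Z-form nucleic acid, rose with DAPT, at 464 and 499 against 222 and 251 (1.03 ± 0.09), and fell with shHdac3 (-0.35 ± 0.11). Tmem173, which encodes STING, rose with DAPT (0.45 ± 0.06) and with shHdac3 (0.79 ± 0.06). Tlr7, an endosomal RNA receptor, fell with DAPT to 19.2 and 23.1 from 36.9 and 52.9 (-1.03 ± 0.28), on few reads. With apicidin Traf6 rose (0.30 ± 0.05) and Traf3 fell (-0.34 ± 0.08).

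Of the other interferon-stimulated genes, 19 of 47 tested rose and 5 fell with DAPT (40.4% and 10.6%, beside 20.1% and 23.1% of all genes). With apicidin 5 of 46 rose and 13 fell (10.9% and 28.3%, beside 18.2% and 19.9%). With shHdac3 6 of 46 rose and 9 fell (13.0% and 19.6%, beside 22.5% and 19.4%), so that the share that fell was close to that of all genes. The largest falls with DAPT were in Ifi204, of a family of DNA-binding proteins, and Oas2, an oligoadenylate synthetase. Ifi204 stood at 16.0 and 16.7 against 119 and 155 (-2.98 ± 0.22) and Oas2 at 2.14 and 4.63 against 29.8 and 27.4 (-2.81 ± 0.45). Oas2 passed the minimum only through the DMSO libraries, where it was high, so its call follows in part from the filter. Ifi205 fell too (-1.75 ± 0.26), and Cmpk2, the nucleotide kinase beside Rsad2, rose by 0.92 ± 0.19. With apicidin Slfn1 rose by 1.46 ± 0.43 and Oas1c by 0.71 ± 0.18, while Parp12 (-1.17 ± 0.25) and Uba7, the activating enzyme for ISG15 (-0.68 ± 0.08), fell. With shHdac3 Gbp5 (-1.31 ± 0.29), Trim30d (-1.04 ± 0.30), Tdrd7 (-0.66 ± 0.17) and Slfn2 (-0.58 ± 0.09) had the largest changes, all lower. Oas, Gbp, Ifi200, Slfn and Trim30 genes belong to families of close copies, as do the Ifit, Ifitm, Irgm and Gbp genes above, and the sources used here do not give how the authors' counting split reads among copies.

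The ISRE core was spread over genes that rose, fell and did not pass. With DAPT it was found in 3 of 8 genes with a listed promoter that rose (Bst2, Gbp2 and Stat2), in 3 of 4 that fell (Ifitm2, Isg15 and Trim25) and in 8 of 16 that did not pass. With apicidin it was found in 1 of 5 that rose, 4 of 10 that fell and 9 of 12 that did not pass. With shHdac3 it was found in 2 of 2 that rose, 3 of 6 that fell and 9 of 21 that did not pass. The promoters of Usp18, Ifi27l2a, Parp9, Parp14, Dhx58, Mx1 and Mx2 were not analysed here. Ddx58, which passed in all 3 experiments, holds neither motif in this window.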

How the data were processed

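Total RNA of 12 libraries was sequenced after removal of ribosomal RNA. Per the submitters' processing notes, FastQC, Bowtie2, TopHat and DESeq2 and the build mm9 were used, without versions. For the counter, its annotation and its strand setting nothing is given in the sources used here. For each experiment the authors deposited 1 table with a normalized signal per gene and library, log2 fold changes with standard errors and test statistics (scores), and p-values raw and adjusted, per the file headers. Within a table each signal was a whole number of reads divided by 1 factor per library. On dividing back, 100% of values came out whole within a relative tolerance of 1e-06.

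Each experiment was tested alone with limma 3.58.1 (R 4.3.3) on log2(value + 1), with an intensity trend, for genes at 10 or more in at least 2 of 4 libraries, two-sided, with Benjamini-Hochberg adjustment over all genes tested and a threshold of 0.05. The pseudocount understates changes of low genes. To compare responses, limma was run on all 12 libraries together, with factors recomputed from the recovered reads. Genes at 10 or more on these rescaled values in at least 2 libraries of each experiment were tested. Mx2 and Oasl2 met this minimum but not the one of the apicidin experiment alone. The difference was thus tested in 34 interferon response genes, beside 32 tested in every single experiment. edgeR 4.0.16 on the recovered reads called 5570, 4765 and 5314 genes with DAPT, apicidin and shHdac3. DESeq2 1.42.0, other scalings, pseudocounts and filters and leaving out each library were the alternatives. Depth was 21766984 to 42815304 reads per library; limits for counts of 0 cover counting error only. The tests were checked on simulated data.

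Members and other lists were chosen with earlier results of these data known. Library values are printed for the 8 members with the largest change among those that passed in each experiment and for Stat2, Irf1, Irf7, Irf9 and Isg15. Those of Rsad2 with DAPT, Irf8 with apicidin, Usp18 with shHdac3 and the genes beside the filter's minimum were added after their values were seen. For other pathway lists values are given for up to 4 genes with the largest change that passed. Promoters came from RefSeq, GRCm38.p6, and were searched on both strands in the 250 bases before the start with Python 3.11.15.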

Additional observations from a re-analysis of the deposited data

How the results depend on the processing

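With 2 libraries per group, small changes depend on single libraries, and genes under 10 normalized reads were beyond the depth of these tests. Of 1508 recomputed log2 fold changes of interferon response genes, 1397 stayed on their side of the threshold, 93 lost and 18 gained a call, and 0 called values changed sign. Of 1914 recomputed differences between responses, 1826 stayed, 72 were lost and 16 gained. Counts of genes called moved over 1.5 times in these settings. With upper-quartile factors, 3 in place of 5 fell with DAPT and 2 in place of 4 rose with shHdac3. With no intensity trend, 1 fell with DAPT, 2 in place of 6 rose and 8 in place of 14 fell with apicidin, and 1 rose with shHdac3. DESeq2 on the recovered reads, and the adjusted p of the authors' deposited table, each gave 8 falls with apicidin and 1 rise with shHdac3. With no filter on low values, 2 rose with shHdac3. Over all genes the shares moved too. With upper-quartile factors, falls with DAPT went from 23.1% to 18.9% and rises with shHdac3 from 22.5% to 18.1%. With no intensity trend these went to 12.7% and 7.54%, and with apicidin rises from 18.2% to 7.56% and falls from 19.9% to 8.48%. DESeq2 gave 11.4% falls with apicidin and 13.7% rises with shHdac3, and the authors' adjusted p gave 10.7% and 13.6%. With no filter, 14.7% rose with shHdac3. The cause was not tested. On leaving out each library in turn, DAPT gave 9 to 11 rises and 2 to 6 falls, apicidin 5 to 6 rises and 10 to 13 falls, and shHdac3 1 to 4 rises and 6 to 8 falls; the responses differed in 13 to 17, 13 to 17 and 13 to 15 genes for DAPT against apicidin, DAPT against shHdac3 and apicidin against shHdac3.

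Whether replicates of the same number shared a day or culture is not in the labels. The difference of replicate 1 minus replicate 2 in treated libraries was correlated with that in controls. The correlation was 0.019, 0.039 and 0.011 with DAPT, apicidin and shHdac3. Such a value cannot decide the question, because noise of single libraries could hide a small shared effect. With the replicate block, 11 rose and 5 fell with DAPT, 6 rose and 14 fell with apicidin, 4 rose and 7 fell with shHdac3, and the responses differed in 16, 15 and 15 genes.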
